A study of Homo sapiens with 9 samples.

Results

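The 36 genes described here encode the glucose transporters, the enzymes of glycolysis, the enzymes that steer pyruvate to lactate or to acetyl-CoA, and a small group of genes known as targets of the hypoxia response. They were chosen by name, as a module of glycolysis and hypoxia-linked metabolism, and all 36 were found among the 34961 genes of the deposited table. LDHA and ENO2 were given as the marker genes of the module. RNA sequencing measured them in WA09 (H9), a line of human embryonic stem cells, here carrying an EGFP reporter knocked in at TPH2, the gene of the neuronal enzyme that starts serotonin synthesis. All libraries, those of Day0 included, share this genotype and one treatment label, the induced differentiation towards serotonin neurons. There were 3 libraries for each of Day0 (the stem cells), Day21 (neural progenitors by label) and Day42 (TPH2+ serotonin neurons by label). By their labels the 3 libraries of a day are biological replicates. Whether each is a differentiation of its own is not stated, so p-values measure only the spread among these libraries, part of which may be technical. Whether EGFP was used to sort the Day42 cells, and whether the line is 1 clone, is not stated in the labels.

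Glycolysis splits glucose into pyruvate in the cytosol and returns a small amount of ATP. Pyruvate is then either reduced to lactate by lactate dehydrogenase or oxidised in mitochondria after the pyruvate dehydrogenase complex has turned it into acetyl-CoA. Most steps can be carried out by more than 1 isozyme, encoded by separate genes, and cell types differ in the isozymes they use. Pluripotent stem cells are known for a high glycolytic rate, and neurons for relying more on oxidation in mitochondria. When oxygen is low, the transcription factor HIF1 (HIF1A with its partner ARNT) is stabilised and switches on many genes of glycolysis together with others such as VEGFA, CA9, BNIP3, EGLN3 and ANKRD37.

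HIF1 binds the core letters ACGTG or GCGTG, and the short stretches of promoter that hold these letters are shown for 4 genes on which the results below turn. They were read on the gene's own strand, 5′ to 3′, from RefSeq promoter windows of GRCh38.p14 that cover the 250 bases before an annotated start, with both strands searched. Capitals mark the matches, so that a match on the other strand appears as CACGT or CACGC, and the palindrome CACGTG counts once on each strand. ENO1 and ENO2 encode the general and the neuronal enolase, LDHA the A subunit of lactate dehydrogenase, and BNIP3 a mitochondrial protein of the hypoxia response.
ENO2: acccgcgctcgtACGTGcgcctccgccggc
ENO1 stretch 1: cacccccctttcCACGCtactgcagccgtc
ENO1 stretch 2: ggagctgaggggGCGTGccccggaggcggg
LDHA stretch 1: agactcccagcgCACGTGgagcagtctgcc
LDHA stretch 2: actcaCACGTGggttcccgCACGTccgccg
BNIP3: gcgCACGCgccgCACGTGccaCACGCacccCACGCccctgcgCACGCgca

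The ENO2 stretch lies at chr12:6914450-6914479 on the plus strand and holds the only match of its window. The ENO1 stretches lie at chr1:8878835-8878864 and chr1:8878741-8878770 on the minus strand. Those of LDHA lie at chr11:18394366-18394395 and chr11:18394471-18394500 on the plus strand and together hold 5 matches. The BNIP3 stretch lies at chr10:131982020-131982069 on the minus strand and holds 6 matches. The window of LDHB, which encodes the other subunit of lactate dehydrogenase, held 0. RefSeq windows were at hand for 32 of the 36 genes, 61 windows in all, and 34 of these (55.7%) held at least 1 match, against 43.2% of all 35116 windows searched. At least 4 matches were found in 5 of the 61 windows, those of HK2, PDHB and BNIP3 with 6 and those of LDHA and ALDOC with 5, and in 3.22% of all windows. A match is a run of letters, not a binding site.

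Total counts were 58526466 to 69658328 per library. Genes with a count above 0 numbered 22198 to 24359 on Day0, 24581 to 24741 on Day21, and 16077, 17101 and 10797 in replicates 1, 2 and 3 of Day42. Day42 replicate 3 therefore stood apart from the other libraries, and 10 of the 36 genes were at 0 in it, against 5 and 3 in the other libraries of that day and 0 to 2 in the libraries of Day0 and Day21. The labelled cell types were checked by marker genes. Summed FPKM of 6 embryonic stem cell markers was 305 to 552 on Day0, 7.85 to 13.3 on Day21 and at most 0.0328 on Day42. Neural progenitor markers were highest on Day21, at 136 to 210.5, and neuron markers on Day42, at 1424 to 1749. Serotonin neuron markers summed to 591 to 649 on Day42 and to at most 1.95 on the other days, although SLC6A4, the serotonin transporter, was at 0 on Day42. Markers of cycling cells summed to 193 to 306 on Day0, 175 to 196 on Day21 and 0.0484 to 7.87 on Day42, and mesenchymal markers to 1.06 to 1.96, 107 to 114 and 17.9 to 52.0. Endothelial, astrocyte, oligodendrocyte lineage and blood cell markers summed to at most 3.69 in every library. The part of cell composition in the changes below was not tested, and in bulk RNA fewer cells of a type and less RNA per cell cannot be told apart.

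Levels are given as FPKM, the authors' fragment value scaled for transcript length and library size. Changes are log2 fold changes of raw counts from edgeR's quasi-likelihood test, later day minus earlier day, with an approximate standard error. A gene was called when its Benjamini-Hochberg adjusted p over all genes tested was under 0.05 and its log2 change at least 1 in size; where no other tool or setting is named, a call is from this edgeR fit. The changes were scaled by TMM factors, which correct library totals for composition, and FPKM were not. The factors were 1.21 to 1.39 on Day42 and 0.764 to 1.04 on the other days. FPKM ratios of Day42 over an earlier day therefore lie above the scaled changes. With TMM the median change of all genes was 0.01 for Day21 against Day0, -0.43 for Day42 against Day21 and -0.44 for Day42 against Day0, and with library totals alone it was 0.13, 0.10 and 0.16.

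**Figure D1:**
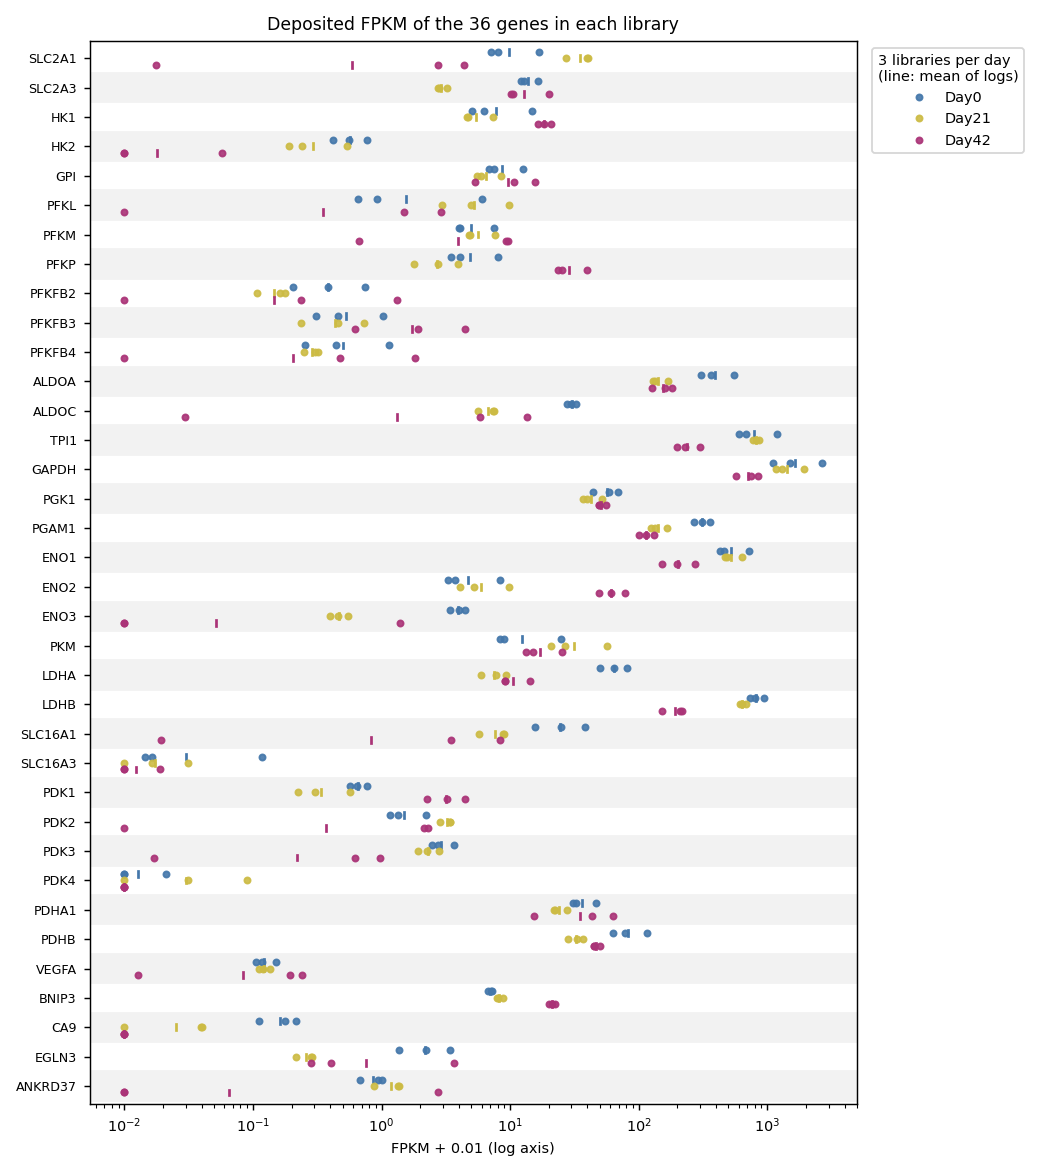
Deposited FPKM of each of the 36 genes in the 9 libraries, on a log axis with a small constant added so that 0 can be drawn. Each point is 1 library, the colours give the day and the short lines the mean of the logs. The levels span from 0 to the 2681 FPKM of GAPDH in Day0 replicate 3, and the widest scatter within a day is on Day42.

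Between stem cells and progenitors, far more of these genes fell than rose. Of 34 genes tested for Day21 against Day0, 1 was called higher, SLC2A1, and 9 were called lower: SLC2A3, ALDOA, ALDOC, PGAM1, ENO3, LDHA, SLC16A1, PDHB and EGLN3. Over all 19541 genes tested, 13.0% were called higher and 12.6% lower, 25.6% in either direction, against 2.94% and 26.5% of the 34. In scaled counts, all 3 Day21 libraries lay above all Day0 libraries for 2 of the 34 and below them for 17, beside 24.6% and 23.0% of all genes, or 47.6% apart in either direction. The median log2 change of the 34 was -0.59, beside 0.01 for all genes. When all 9 libraries entered 1 fit, 0 of these genes were called higher and 5 lower, beside 266 higher and 238 lower over all genes. Without Day0 replicate 3 the calls were 4 higher and 10 lower.

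Between progenitors and Day42 cells the calls went both ways. Of 33 genes tested for Day42 against Day21, 5 were called higher, SLC2A3, HK1, PFKP, ENO2 and PDK1, and 4 lower, TPI1, GAPDH, ENO1 and LDHB. Over all 17731 genes tested, 5.81% were called higher and 16.2% lower, 22.0% in either direction, against 15.2% and 12.1% of the 33. All 3 Day42 libraries lay above all Day21 libraries for 6 of the 33 and below them for 14, beside 12.7% and 35.3% of all genes, or 48.0% apart in either direction. The median log2 change of the 33 was -0.46, beside -0.43 for all genes. These medians moved with the setting: they were 0.07 and 0.10 with library totals, -0.59 and -1.65 with DESeq2, and -0.64 and -1.52 with no filter on low counts. Single libraries bore on these counts. Without Day21 replicate 2 or without Day21 replicate 3 the calls were 0 higher and 4 lower, while those over all genes were 135 higher and 173 lower without replicate 2 and 154 and 182 without replicate 3. They were 2 higher and 4 lower without Day21 replicate 1, and 4 higher and 7 lower without Day42 replicate 2. Without Day42 replicate 3, the library with the fewest genes, they were 5 higher and 9 lower. With upper quartile scaling the split of the 33 was 4 higher and 6 lower. With library totals in place of TMM, an alternative chosen after the data were seen, the split of all genes was 1587 higher and 2586 lower, beside 1030 and 2878 with TMM.

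Over the whole course, the calls were mostly lower. Of 34 genes tested for Day42 against Day0, PFKP and ENO2 were called higher and 9 lower: ALDOA, TPI1, GAPDH, PGAM1, ENO1, LDHA, LDHB, PDHB and CA9. CA9 was at 0 in all Day42 libraries and passed the count filter only through Day0, so its call could only be lower. Over all 17486 genes tested, 6.89% were called higher and 18.5% lower, 25.4% in either direction, against 5.88% and 26.5% of the 34. All 3 Day42 libraries lay above all Day0 libraries for 4 of the 34 and below them for 16, beside 13.4% and 35.5% of all genes, or 48.9% apart in either direction. The median log2 change of the 34 was -1.03, beside -0.44 for all genes. Without Day0 replicate 1 the calls were 0 higher and 6 lower, beside 225 and 322 over all genes, and without Day42 replicate 3 they were 3 higher and 15 lower. Without Day0 replicate 2 they were 1 and 9, and without Day42 replicate 2 they were 3 and 12. With library totals in place of TMM, 4 were called higher and 8 lower, and over all genes 1804 higher and 2820 lower, beside 1204 and 3229 with TMM. The comparisons share the libraries of a day and are not independent of each other.

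**Figure D2:**
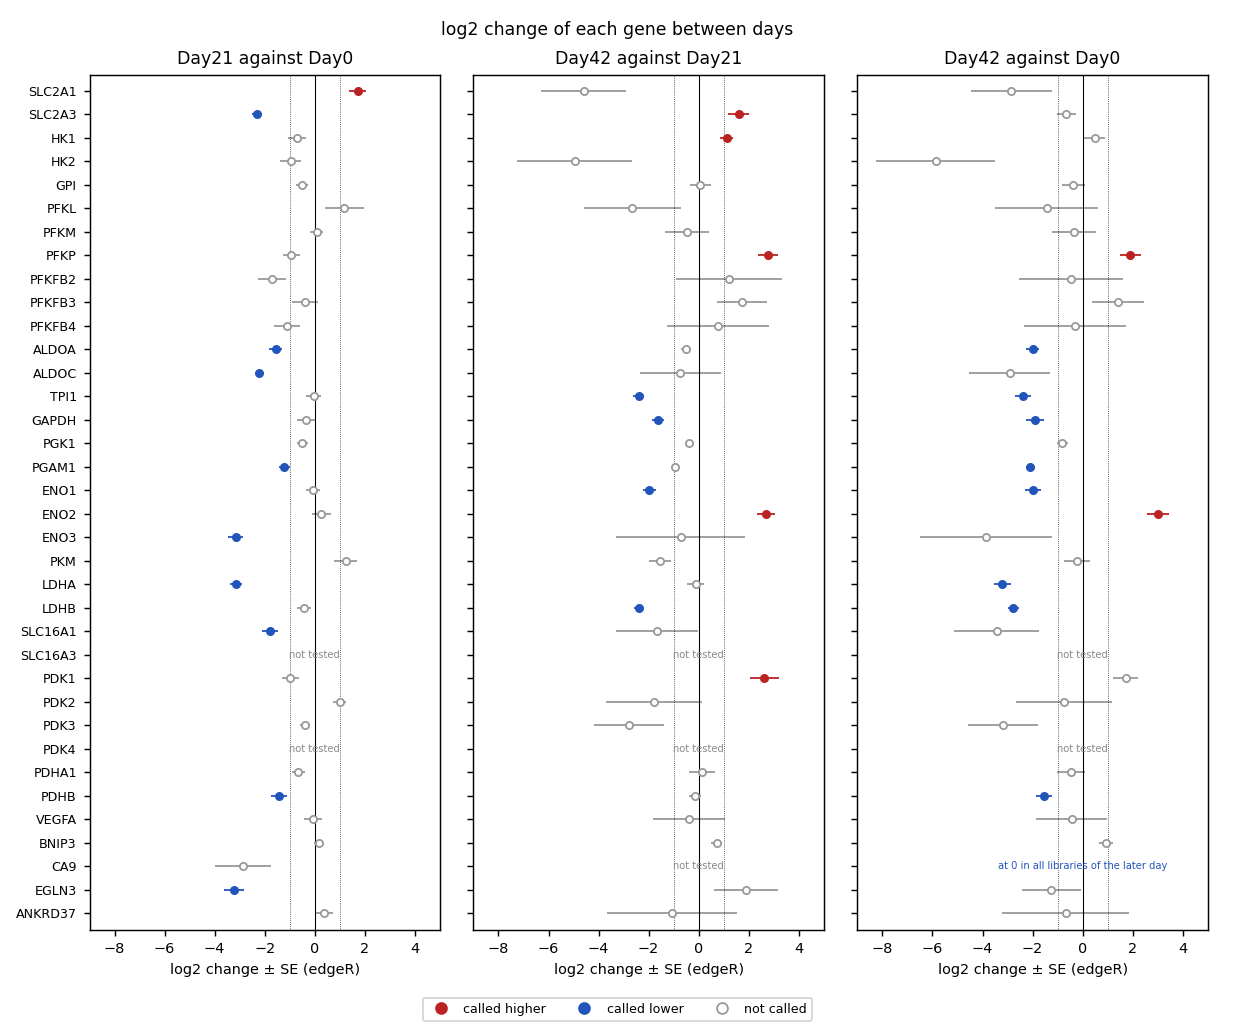
log2 change of each of the 36 genes with its standard error from edgeR, in 1 panel per comparison, later day minus earlier day. Filled points passed the adjusted p and the fold minimum, open points did not, and dotted lines mark a change of 1 in either direction. LDHA stands at -3.15 on Day21 against Day0 and ENO2 at 2.69 on Day42 against Day21. Bars in the Day42 panels are long for genes that were at or near 0 in Day42 replicate 3.

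Glucose enters cells through facilitative transporters. SLC2A1 encodes GLUT1, the widespread transporter, and SLC2A3 encodes GLUT3, the high-affinity transporter typical of neurons. SLC2A1 (chromosome 1, 42925353 to 42958868, minus strand, GRCh38) stood at 7.05, 8.06 and 16.8 FPKM on Day0, 39.8, 40.1 and 27.0 on Day21, with 2.72, 4.33 and 0.00753 in the Day42 libraries. All Day21 libraries lay above those of both other days. SLC2A1 was higher on Day21 than on Day0, by 1.71 ± 0.33 on the log2 scale (edgeR, adjusted p = 0.00732), or 3.35-fold in mean FPKM, but was not called when all 9 libraries entered 1 fit (1.73, adjusted p = 0.651). For Day42 against Day21 the value was -4.59 ± 1.71, which was not called (adjusted p = 0.123). Without Day42 replicate 3, where only 4 counts were found, it was -4.04 and called (edgeR, adjusted p = 0.00333), as was that for Day42 against Day0 (-2.29, adjusted p = 0.0150). With all libraries kept, the fall against Day21 was called by DESeq2 (-4.57, adjusted p = 0.0190) and in 1 edgeR fit of all 9 libraries (-4.60, adjusted p = 0.0494). Limma called it with a pseudocount of 1 (-3.73, adjusted p = 0.00432) and of 0.1 (-4.99, adjusted p = 0.0375). Of 18 alternatives, 13 did not call it.

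SLC2A3 (chromosome 12, 7919230 to 7936187, minus strand) did the opposite. Its level was 12.8, 12.2 and 16.5 FPKM on Day0, 3.21, 2.77 and 2.76 on Day21, with 10.6, 10.1 and 19.998 in the Day42 libraries. The Day21 libraries were the lowest of all, while Day0 and Day42 overlapped. SLC2A3 fell by 2.31 ± 0.19 on the log2 scale on Day21 against Day0 (edgeR, adjusted p = 0.000219). It was higher on Day42 than on Day21, by 1.59 ± 0.40 (edgeR, adjusted p = 0.0373). The call for Day42 against Day21 was lost without Day21 replicate 1, 2 or 3, with adjusted p from 0.104 to 0.134. It was also lost with DESeq2 (adjusted p = 0.0538) and with no filter on low counts (0.0960). For Day42 against Day0 SLC2A3 was not called, and without Day42 replicate 3 the change was -1.14 and called (edgeR, adjusted p = 0.0183).

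Set against each other within a library, the pair changed places. GLUT1 made up 92.5, 93.5 and 90.7% of the summed FPKM of both transporters on Day21, against 35.5, 39.8 and 50.5% on Day0. On Day42 it made up 20.4, 30.1 and 0.0376%, below every library of Day21 and of Day0. The mean share was 50.3 percentage points higher on Day21 than on Day0 and 75.4 points lower on Day42 than on Day21. The exact two-sided permutation test over libraries gave p = 0.1 for each, the smallest that 3 against 3 libraries allow. That smallest value applies to all 69 tests of shares, so shares are described here by whether the libraries of the days overlap.

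Hexokinase traps glucose as glucose 6-phosphate, with HK1 the form typical of brain and HK2 the form induced in growing and hypoxic cells. HK1 (chromosome 10, 69269984 to 69401884, plus strand) measured 6.23, 5.08 and 14.7 FPKM on Day0, 7.33, 4.69 and 4.59 on Day21, with 16.4, 20.9 and 18.5 in the Day42 libraries. Its Day42 libraries lay above all others in FPKM. HK1 was higher on Day42 than on Day21 by 1.12 ± 0.26 on the log2 scale (edgeR, adjusted p = 0.0269), and the value against Day0 was 0.48 ± 0.42, not called. The call was lost without any 1 of the Day21 libraries or without Day42 replicate 2 (adjusted p from 0.0570 to 0.147). It was also lost with DESeq2 (adjusted p = 0.115), with all 9 libraries in 1 fit (0.0620), with no filter on low counts (0.0886) and with upper quartile scaling, where the change was 0.93.

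HK2 was low throughout, at 0.410, 0.546 and 0.760 FPKM on Day0, 0.531, 0.181 and 0.232 on Day21, with 0, 0.0470 and 0 in the Day42 libraries. Its Day42 libraries lay below all others, but HK2 was not called in any comparison of the 6 libraries (edgeR, adjusted p = 0.213 against Day21 and 0.137 against Day0). It was called lower in both without Day42 replicate 2, the only Day42 library with counts of HK2 (adjusted p = 0.0169 and 0.0217), and on Day21 against Day0 without Day21 replicate 1 (-1.42, adjusted p = 0.0487). With Day42 replicate 2 left out HK2 was at 0 on Day42, so a call there could only be lower. With all libraries kept, DESeq2 called HK2 lower on Day42 against Day21 (-4.96, adjusted p = 0.0434) and against Day0 (-5.91, adjusted p = 0.00979). An edgeR fit of all 9 libraries called it lower against Day0 (-5.91, adjusted p = 0.0447). Of 15 alternatives, 13 did not call HK2 against Day21 and 12 did not against Day0. HK1 held 90.3 to 96.3% of the summed hexokinase FPKM in the libraries of Day0 and Day21, and 99.8 to 100% on Day42. GPI, the isomerase of the next step, measured 6.84, 7.44 and 12.6 FPKM on Day0, 8.42, 5.90 and 5.47 on Day21, with 5.32, 10.8 and 15.6 in the Day42 libraries, without a call.

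Phosphofructokinase 1 commits sugar to glycolysis, and its subunits are named for liver (PFKL), muscle (PFKM) and platelet (PFKP), the last of them a major form in brain. PFKP (chromosome 10, 3066333 to 3137715, plus strand) measured 3.49, 4.06 and 7.99 FPKM on Day0, 3.92, 2.72 and 1.79 on Day21, with 25.4, 23.6 and 39.4 in the Day42 libraries. Every Day42 library lay far above the highest of the other days. PFKP was higher on Day42 than on Day21 by 2.78 ± 0.39 on the log2 scale (edgeR, adjusted p = 0.0109), 10.5-fold in mean FPKM, and higher than on Day0 by 1.91 ± 0.43 (edgeR, adjusted p = 0.0201). Against Day21 the adjusted p was 0.0539 without Day21 replicate 2 and 0.0555 without Day21 replicate 3. Against Day0 it was 0.0791 without Day0 replicate 1 and 0.0680 without Day0 replicate 2.

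The other subunits were not called in any comparison of 6 libraries. PFKL measured 0.906, 0.647 and 6.07 FPKM on Day0, 9.80, 4.92 and 2.95 on Day21, with 1.48, 2.87 and 0 in the Day42 libraries. PFKM measured 4.04, 4.01 and 7.53 FPKM on Day0, 7.60, 4.85 and 4.78 on Day21, with 9.63, 9.35 and 0.663 in the Day42 libraries. Both were lowest of the Day42 libraries in replicate 3, whereas PFKP was highest there. Without Day0 replicate 3, PFKL was called higher on Day21 against Day0 (2.73, edgeR, adjusted p = 0.00595), and without Day42 replicate 3 it was called lower on Day42 against Day21 (-2.09, adjusted p = 0.0349).

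The subunit mix differed between all 3 days. PFKP held 41.4, 46.6 and 37.0% of summed phosphofructokinase FPKM on Day0, 18.4, 21.8 and 18.8% on Day21, with 69.6, 65.9 and 98.3% in the Day42 libraries, with no overlap between days. PFKL held 10.7, 7.43 and 28.1% on Day0, 46.0, 39.4 and 31.0% on Day21, with 4.05, 8.01 and 0% in the Day42 libraries. PFKM held 34.9 to 50.2% on Day0 and Day21, with 26.4, 26.1 and 1.65% in the Day42 libraries.

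The bifunctional PFKFB enzymes make and remove fructose 2,6-bisphosphate, the activator of phosphofructokinase. PFKFB2, PFKFB3 and PFKFB4 were scarce, and edgeR called none of them in the 6 libraries of any comparison. On Day0 and Day21 all of them stood between 0.0978 and 1.13 FPKM. On Day42 PFKFB2 measured 1.31, 0.227 and 0 FPKM, PFKFB3 0.611, 1.9 and 4.45, and PFKFB4 1.83, 0.464 and 0. The library that was highest for PFKFB3, replicate 3, was the one in which the other members of the family were at 0. On Day21 against Day0, PFKFB2 was called lower by DESeq2 (-1.74, adjusted p = 0.01) and by edgeR without Day0 replicate 3 (-2.08, adjusted p = 0.0119), and PFKFB4 by edgeR without Day0 replicate 2 (-1.48, adjusted p = 0.0431).

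Aldolase splits the 6-carbon sugar, with ALDOA the widespread form and ALDOC the brain form. ALDOA (chromosome 16, 30064164 to 30070414, plus strand) measured 308, 367 and 548 FPKM on Day0, 168, 129 and 134 on Day21, with 160.0, 128 and 182 in the Day42 libraries. The Day0 libraries were the highest, and Day21 and Day42 overlapped. ALDOA fell by 1.56 ± 0.26 on the log2 scale on Day21 against Day0 (edgeR, adjusted p = 0.00390) and by 2.00 ± 0.27 on Day42 against Day0 (edgeR, adjusted p = 0.00814). The value for Day42 against Day21, -0.50 ± 0.19, was not called and lay close to the median of all genes.

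ALDOC (chromosome 17, 28573115 to 28576948, minus strand) measured 27.9, 30.03 and 32.8 FPKM on Day0, 7.41, 5.59 and 7.45 on Day21, with 13.5, 5.86 and 0.0195 in the Day42 libraries. The Day0 libraries were again the highest, and the Day42 libraries spread widely. ALDOC fell by 2.22 ± 0.19 on Day21 against Day0 (edgeR, adjusted p = 0.000268), a call that was lost with all 9 libraries in 1 fit (-2.20, adjusted p = 0.521). Its change on Day42 against Day0 was -2.91 ± 1.62, not called, and without Day42 replicate 3 it was -2.35 and called (edgeR, adjusted p = 0.0142). Limma on log2(FPKM + 1) also called that change (-2.74, adjusted p = 0.0470), while 16 of 18 alternatives did not. ALDOC made up 7.17 ± 1.37% of aldolase FPKM on Day0, 4.55 ± 0.614% on Day21 and 4.06 ± 3.90% in Day42 libraries (SD, n = 3 libraries each).

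Triose phosphate isomerase and glyceraldehyde 3-phosphate dehydrogenase carry the products into the ATP-yielding stage of the pathway, and both fell on Day42. TPI1 (chromosome 12, 6867119 to 6870948, plus strand) measured 600.4, 682 and 1185 FPKM on Day0, 816, 866 and 774 on Day21, with 228, 201 and 301 in the Day42 libraries. GAPDH (chromosome 12, 6534512 to 6538371, plus strand) measured 1512, 1112 and 2681 FPKM on Day0, 1923, 1297 and 1174 on Day21, with 752, 567 and 850.0 in the Day42 libraries. For both genes the Day42 libraries were the lowest, and Day0 and Day21 overlapped. TPI1 fell by 2.40 ± 0.23 on the log2 scale against Day21 and by 2.37 ± 0.31 against Day0 (edgeR, adjusted p = 0.00438 and 0.00806). GAPDH fell by 1.63 ± 0.23 against Day21 and by 1.9 ± 0.35 against Day0 (edgeR, adjusted p = 0.0108 and 0.0131). The GAPDH call against Day0 was lost without Day0 replicate 1 (-2.02, adjusted p = 0.0569). GAPDH was the most abundant of the 36 genes on each day, with 34.8% of their summed mean FPKM on Day0, 36.7% on Day21 and 36.2% on Day42, so its fall was in step with that of the sum.

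PGK1, the kinase that makes the first ATP of this stage, measured 44.4, 58.7 and 69.5 FPKM on Day0, 52.1, 39.5 and 36.6 on Day21, with 55.6, 48.8 and 48.9 in the Day42 libraries. Its FPKM overlapped between all days. PGK1 was not called, although its change on Day42 against Day0, -0.81 ± 0.21, had an adjusted p of 0.0330 in edgeR and missed only the fold minimum. PGAM1, the mutase of the next step (chromosome 10, 97426191 to 97433444, plus strand), measured 269.6, 309 and 362 FPKM on Day0, 167, 134 and 125 on Day21, with 131, 115 and 101 in the Day42 libraries. Its Day0 libraries lay above all others. PGAM1 fell by 1.21 ± 0.21 on the log2 scale on Day21 against Day0 and by 2.09 ± 0.18 on Day42 against Day0 (edgeR, adjusted p = 0.00477 and 0.00323). Against Day21, the Day42 value of -0.94 ± 0.16 had an adjusted p of 0.0131 in edgeR and was under the fold minimum, which it passed without Day42 replicate 1 (-1.05).

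Enolase differed in its isozyme mix on Day42. ENO1 is the general form, ENO2 the neuronal form (neuron-specific enolase) and ENO3 the muscle form. ENO2 (chromosome 12, 6913745 to 6923696, plus strand) measured 3.27, 3.70 and 8.34 FPKM on Day0, 9.82, 5.24 and 4.06 on Day21, with 48.8, 60.8 and 78.0 in the Day42 libraries. Day0 and Day21 overlapped, and the lowest Day42 library was several-fold above the highest of either. ENO2 was higher on Day42 than on Day21 by 2.69 ± 0.37 on the log2 scale (edgeR, adjusted p = 0.0106), 9.81-fold in mean FPKM, and higher than on Day0 by 3.01 ± 0.44 (edgeR, adjusted p = 0.0101), 12.3-fold in mean FPKM. The adjusted p against Day21 was 0.0539 without Day21 replicate 2 and 0.0549 without Day21 replicate 3, and against Day0 it was 0.0569 without Day0 replicate 1. For Day21 against Day0 the value was 0.25 ± 0.38, not called.

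ENO1 (chromosome 1, 8861000 to 8878690, minus strand) went the other way on Day42. It measured 431, 463 and 716 FPKM on Day0, 640.3, 489 and 467 on Day21, with 198, 153 and 274 in the Day42 libraries. The Day42 libraries were the lowest, and Day0 and Day21 overlapped. ENO1 fell by 1.98 ± 0.26 against Day21 and by 1.98 ± 0.32 against Day0 on the log2 scale (edgeR, adjusted p = 0.0101 and 0.0115).

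ENO3 (chromosome 17, 4948092 to 4957131, plus strand) measured 4.02, 4.44 and 3.4 FPKM on Day0, 0.449, 0.389 and 0.543 on Day21, with 0, 1.38 and 0 in the Day42 libraries. Its Day0 libraries stood apart from all others. ENO3 fell by 3.16 ± 0.29 on Day21 against Day0 (edgeR, adjusted p = 0.000321). With all 9 libraries in 1 fit the change was -3.15 and not called (adjusted p = 0.586). Its Day42 level was not called against either earlier day, but was called lower against both without Day42 replicate 2, the only Day42 library that held it (edgeR, adjusted p = 0.0169 and 0.0217). With that library left out ENO3 was at 0 on Day42, so a call could only be lower. With all libraries kept, limma called ENO3 lower on Day42 against Day0 with a pseudocount of 1 (-1.89, adjusted p = 0.0105) and of 0.1 (-4.04, adjusted p = 0.0322). Of the 18 alternatives of that comparison, 15 did not call ENO3. ENO3 shares exons with PFN1 on the other strand, and no source used here says whether counting used the strand.

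Of the summed enolase FPKM, ENO2 held 0.746, 0.784 and 1.15% on Day0, 1.51, 1.06 and 0.861% on Day21, with 19.8, 28.3 and 22.1% in the Day42 libraries. ENO1 held 98.3 to 98.4% on Day0, 98.4 to 99.0% on Day21, with 80.2, 71.1 and 77.9% in the Day42 libraries. ENO1 thus remained the larger part in every Day42 library, and total enolase FPKM was 546 ± 158 on Day0, 539 ± 97.2 on Day21 and 271 ± 72.1 in Day42 libraries (SD, n = 3 libraries each).

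**Figure D3:**
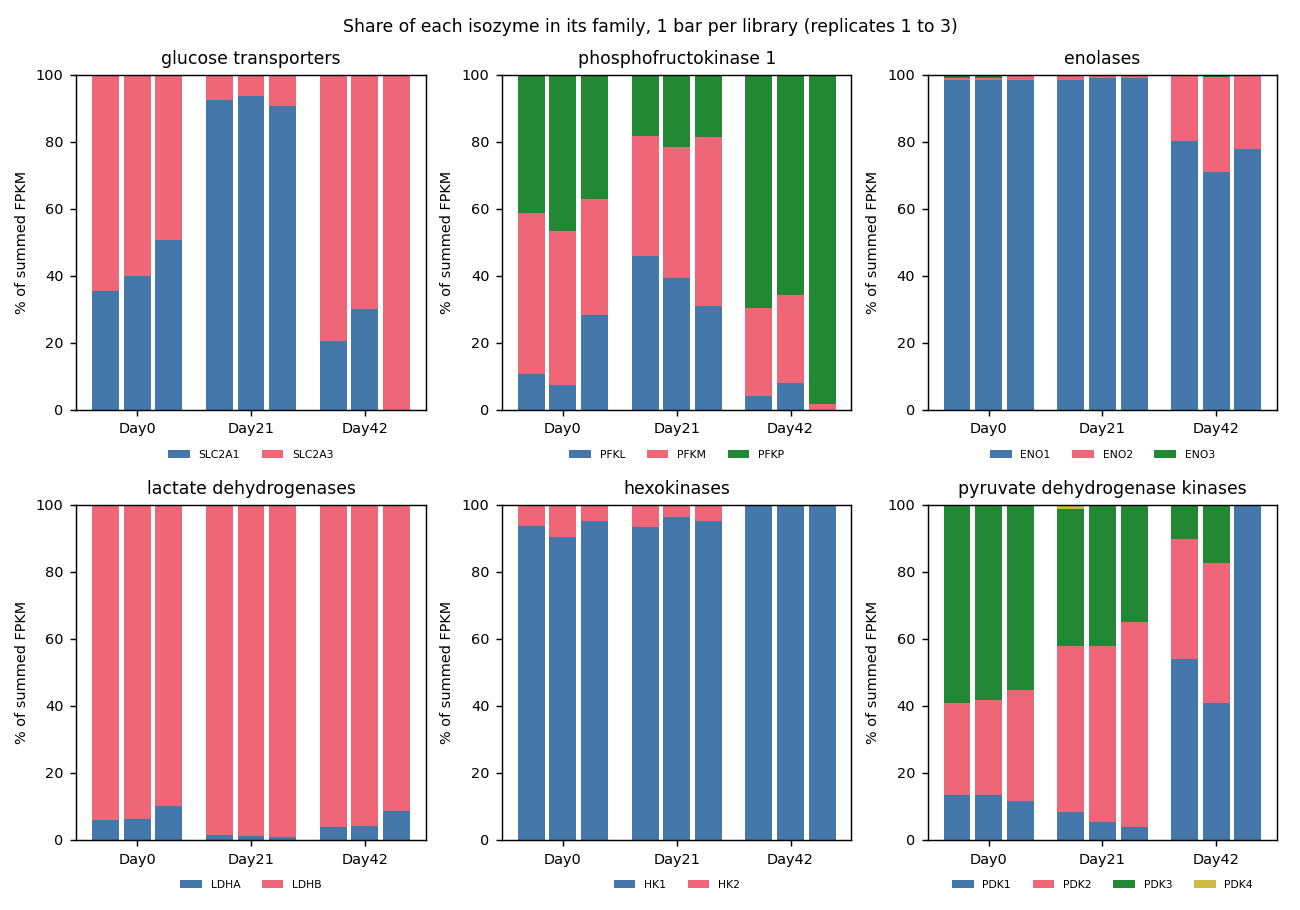
Share of each isozyme in the summed FPKM of its family, in percent, with 1 stacked bar per library and the 3 libraries of a day side by side. GLUT1 (SLC2A1) fills 90.7 to 93.5% of the Day21 bars of the glucose transporters, ENO2 appears as a visible part of enolase on Day42 alone, and PDK1 is the largest kinase in Day42 replicates 1 and 3. Bars of Day42 replicate 3 are often nearly 1 colour.

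Pyruvate kinase makes pyruvate and the last ATP. PKM measured 8.96, 8.35 and 24.7 FPKM on Day0, 56.7, 26.8 and 20.7 on Day21, with 15.0, 13.3 and 25.5 in the Day42 libraries, overlapping between all days in FPKM. It was not called, with adjusted p from edgeR of 0.0812 for Day21 against Day0 (1.24 ± 0.46) and 0.0519 for Day42 against Day21 (-1.54 ± 0.43). Day0 replicate 3 bore on the comparison of Day21 with Day0, since without it the value was 1.82 and called (edgeR, adjusted p = 0.0130), and without Day42 replicate 3 the value for Day42 against Day21 was -1.94 and called (adjusted p = 0.0203). DESeq2 called PKM higher on Day21 against Day0 (1.23, adjusted p = 0.0262), while 16 of 18 alternatives did not. Upper quartile scaling called it lower on Day42 against Day21 (-1.75, edgeR, adjusted p = 0.0229), where 14 of 18 alternatives did not. The table counts the gene as a whole and does not separate the M1 and M2 splice forms.

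Lactate dehydrogenase is a tetramer of A and B subunits; the A subunit is known for favouring lactate formation and for its induction by HIF1. LDHA (chromosome 11, 18394560 to 18408425, plus strand) measured 49.9, 63.9 and 81.8 FPKM on Day0, 9.33, 7.72 and 5.97 on Day21, with 9.10, 9.05 and 14.4 in the Day42 libraries. All Day0 libraries were far above the others, and Day21 and Day42 overlapped. LDHA fell by 3.15 ± 0.24 on the log2 scale on Day21 against Day0 (edgeR, adjusted p = 0.000193), 8.50-fold in mean FPKM, and by 3.21 ± 0.33 on Day42 against Day0 (edgeR, adjusted p = 0.00428), 6.01-fold in mean FPKM. For Day42 against Day21 the value was -0.13 ± 0.34 (adjusted p = 0.878). Pseudogenes of LDHA in the table held 9.02% of the counts of gene and pseudogenes together in Day42 replicate 2. In every other library they held at most 1.32%. How reads that match both were assigned is not stated, so these shares do not bound the uncertainty of the LDHA level.

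LDHB (chromosome 12, 21635342 to 21657971, minus strand) fell later. It measured 808, 948 and 730.4 FPKM on Day0, 636, 612 and 679 on Day21, with 219, 210.4 and 153 in the Day42 libraries. In FPKM the 3 days did not overlap. LDHB fell by 2.38 ± 0.19 on Day42 against Day21 and by 2.77 ± 0.23 against Day0 (edgeR, adjusted p = 0.00307 and 0.00290), while its Day21 value against Day0 was -0.44 ± 0.27 and not called. The share of LDHA in the summed FPKM of both subunits was 5.82, 6.32 and 10.1% on Day0, 1.45, 1.25 and 0.872% on Day21, with 3.98, 4.12 and 8.63% in the Day42 libraries. The Day21 libraries were the lowest, and Day0 and Day42 overlapped, so LDHB held at least 89.9% in every library. LDHB also shares exon sequence with a second gene model on its strand, AC010197.2.

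Lactate leaves or enters cells through monocarboxylate transporters. SLC16A1 (MCT1; chromosome 1, 112911847 to 112956196, minus strand) measured 24.9, 15.7 and 38.1 FPKM on Day0, 8.91, 8.73 and 5.75 on Day21, with 3.45, 8.34 and 0.00930 in the Day42 libraries. The Day0 libraries were the highest. SLC16A1 fell by 1.80 ± 0.33 on the log2 scale on Day21 against Day0 (edgeR, adjusted p = 0.00593). With all 9 libraries in 1 fit the change was -1.79 and not called (adjusted p = 0.659). On Day42 against Day0 the value was -3.44 ± 1.69 and not called, and without Day42 replicate 3 it was -2.88 and called (edgeR, adjusted p = 0.0142). Limma on log2(FPKM + 1) also called that change (-2.89, adjusted p = 0.0270), while 16 of 18 alternatives did not. SLC16A3 (MCT4), the lactate exporter of strongly glycolytic cells, was at most 0.108 FPKM in any library and too low to be tested.

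**Figure D4:**
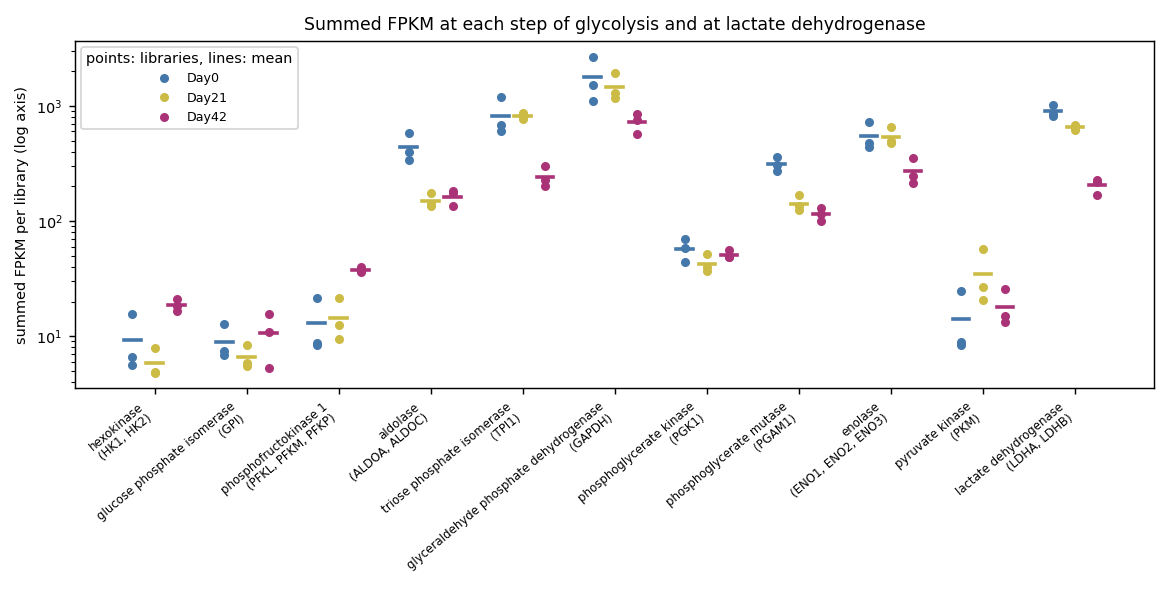
Summed FPKM of the isozymes at each step from hexokinase to lactate dehydrogenase, on a log axis, with 1 point per library and a short line at the mean of each day. The hexokinase and phosphofructokinase points of Day42 lie above those of the earlier days, and the Day42 points of triose phosphate isomerase, GAPDH, enolase and lactate dehydrogenase lie below them.

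Summed over isozymes in FPKM, the kinase steps at the head of the pathway stood higher on Day42 and several later steps lower. Hexokinase summed to 9.24 ± 5.41 FPKM on Day0, 5.85 ± 1.74 on Day21 and 18.6 ± 2.27 on Day42. Phosphofructokinase 1 summed to 12.9 ± 7.51 FPKM on Day0, 14.4 ± 6.14 on Day21 and 37.5 ± 2.29 on Day42. All Day42 libraries lay above the others at these steps in FPKM. In scaled counts HK1, nearly all of hexokinase, overlapped between Day42 and Day0 (0.48 ± 0.42, edgeR, not called). Lactate dehydrogenase summed to 894 ± 105 FPKM on Day0, 649.8 ± 33.1 on Day21 and 205 ± 33.2 in Day42 libraries (SD, n = 3 libraries each). All Day42 libraries lay below the others for lactate dehydrogenase, as they did for triose phosphate isomerase, GAPDH and enolase. Aldolase differed already between Day21, at 151 ± 22.1 FPKM, and Day0, at 438 ± 127, as did PGAM1. These sums are descriptions on the FPKM scale and were not tested.

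Pyruvate dehydrogenase kinases switch off the pyruvate dehydrogenase complex, which turns pyruvate into acetyl-CoA in mitochondria, and PDK1 is the one known as a HIF1 target. PDK1 (chromosome 2, 172555373 to 172599137, plus strand) measured 0.561, 0.632 and 0.762 FPKM on Day0, 0.561, 0.291 and 0.212 on Day21, with 3.23, 2.26 and 4.43 in the Day42 libraries. The Day42 libraries lay above all others. PDK1 was higher on Day42 than on Day21 by 2.62 ± 0.57 on the log2 scale (edgeR, adjusted p = 0.0202), 9.31-fold in mean FPKM, and the value against Day0, 1.71 ± 0.50, fell just short of a call (edgeR, adjusted p = 0.0524). The call against Day21 was lost without Day21 replicate 1, 2 or 3, with adjusted p of 0.0517, 0.1001 and 0.0833. For Day21 against Day0 it was not called, but without Day21 replicate 1 it was lower by a called amount (log2 change -1.33, edgeR, adjusted p = 0.0273). Against Day0 the change was called by edgeR without Day42 replicate 2 (1.96, adjusted p = 0.0401) or without Day42 replicate 3 (1.36, adjusted p = 0.0273). DESeq2 called it too (1.69, adjusted p = 0.0174), as did 1 edgeR fit of all 9 libraries (1.66, adjusted p = 0.0326). Of the 18 alternatives for PDK1 on Day42 against Day0, 8 called it higher and 10 did not.

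The other kinases were not called by edgeR in the 6 libraries of a comparison. PDK2 measured 1.15, 1.33 and 2.19 FPKM on Day0, 3.39, 2.85 and 3.38 on Day21, with 2.14, 2.31 and 0 in the Day42 libraries. Its Day21 libraries lay above all others, and the change against Day0, 0.99 ± 0.26, missed the fold minimum (edgeR, adjusted p = 0.0229). PDK2 passed that minimum and was called higher without Day0 replicate 3 (1.23, adjusted p = 0.00840), with upper quartile scaling (1.03, 0.0155), with library totals (1.09, 0.0377), among genes of at least 1 FPKM in 3 libraries (1.06, 0.0192) and in limma on log2(FPKM + 0.1) (1.04, 0.0285). On Day42 against Day21 it was called lower without Day42 replicate 3 (-1.22, edgeR, adjusted p = 0.0222). PDK3 measured 2.46, 2.74 and 3.64 FPKM on Day0, 2.78, 2.26 and 1.92 on Day21, with 0.612, 0.969 and 0.00705 in the Day42 libraries. Its Day42 libraries were the lowest, and without replicate 3 of that day PDK3 was called lower against Day21 (-2.24, adjusted p = 0.00831) and against Day0 (-2.62, adjusted p = 0.00605; both edgeR). Limma on log2(FPKM + 1) called it lower in both comparisons (-1.16 and -1.41). PDK4 was at most 0.0793 FPKM in any library, was at 0 in all Day42 libraries and was too low to be tested.

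By mean share, the largest part of kinase FPKM therefore lay with a different gene on each day. PDK3 held 59.0, 58.3 and 55.1% on Day0, PDK2 49.8, 52.6 and 61.3% on Day21, and PDK1 54.0, 40.8 and 99.8% on Day42. In Day42 replicate 2, PDK2 held slightly more than PDK1, 41.7%. The Day21 ranking rests on the length scaling of FPKM. From raw counts PDK3 held the largest mean share on Day21 too, 57.6% against 32.8% for PDK2. The sum over the kinases was 5.16 ± 1.28 FPKM on Day0, 5.92 ± 0.772 on Day21 and 5.32 ± 0.796 in Day42 libraries (SD, n = 3 libraries each), and the days overlapped.

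PDHA1 and PDHB encode the subunits of the enzyme that these kinases act on. PDHB (chromosome 3, 58427630 to 58433857, minus strand) measured 78.6, 115 and 63.6 FPKM on Day0, 28.3, 33.4 and 37.1 on Day21, with 44.5, 44.8 and 50.4 in the Day42 libraries. In FPKM the days did not overlap, with Day0 highest and Day21 lowest. PDHB fell by 1.45 ± 0.31 on the log2 scale on Day21 against Day0 and by 1.55 ± 0.31 on Day42 against Day0 (edgeR, adjusted p = 0.0118 and 0.0141), and for Day42 against Day21 the TMM-scaled value was -0.16 ± 0.23, not called. The call for Day42 against Day0 was lost without Day0 replicate 1 (-1.62, adjusted p = 0.0588), and with library totals in place of TMM the change was -0.96, under the fold minimum. PDHA1 measured 32.4, 46.3 and 30.9 FPKM on Day0, 22.4, 21.9 and 27.9 on Day21, with 43.4, 15.4 and 63.0 in the Day42 libraries, and was not called.

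The hypoxia-linked genes among the 36 did not move as a group. BNIP3 (chromosome 10, 131966455 to 131982013, minus strand) measured 7.14, 6.68 and 7.27 FPKM on Day0, 8.75, 8.03 and 7.95 on Day21, with 20.1, 22.5 and 21.2 in the Day42 libraries. Its coefficient of variation in scaled counts on Day42, 4.76%, was the smallest of the 28 genes with a mean of at least 1 FPKM. Its Day42 libraries lay well above all others. The TMM-scaled change was 0.72 ± 0.22 against Day21 and 0.94 ± 0.28 against Day0, neither of them called (edgeR, adjusted p = 0.0691 and 0.0528). With library totals in place of TMM the changes were 1.24 and 1.52, and both were called (adjusted p = 0.0120 and 0.0108). The result for BNIP3 thus depends on the scaling.

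EGLN3, an oxygen-sensing prolyl hydroxylase that marks HIF1A for removal (chromosome 14, 33924227 to 34222953, minus strand), measured 1.37, 3.41 and 2.19 FPKM on Day0, 0.207, 0.277 and 0.273 on Day21, with 0.275, 0.398 and 3.68 in the Day42 libraries. The Day21 libraries lay below those of Day0, and in FPKM replicate 3 of Day42 lay above all others. In scaled counts that library lay below Day0 replicate 2. EGLN3 fell by 3.23 ± 0.40 on the log2 scale on Day21 against Day0 (edgeR, adjusted p = 0.00118). With all 9 libraries in 1 fit the change was -3.21 and not called (adjusted p = 0.159). For Day42 against Day0 it was not called, and without Day42 replicate 3 the log2 change was -3.52 and called (edgeR, adjusted p = 0.0105).

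CA9, a surface carbonic anhydrase used as a marker of hypoxia, was barely detected. It had 12, 23 and 27 counts in the Day0 libraries, 4, 0 and 5 counts on Day21, and 0 in each Day42 library. A count of 0 allows up to 12 counts in a library here, since counts pile up at multiples of 4, and Day0 replicate 1 stood at that limit. For Day42 against Day0 edgeR called CA9 lower, a call that was lost without Day0 replicate 1. CA9 passed the count filter only through Day0, so a call could only be lower and adds no support. Against the mean limit of the Day42 libraries CA9 was at least 2.57-fold lower than on Day0. The limit covers counting error only.

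VEGFA, the vascular growth factor, was at most 0.230 FPKM in any library and was not called. ANKRD37 measured 0.999, 0.925 and 0.666 FPKM on Day0, 1.34, 0.869 and 1.36 on Day21, with 0, 2.76 and 0 in the Day42 libraries, and was not called. Without Day42 replicate 2, the only Day42 library that held it, ANKRD37 was called lower on Day42 against Day21 and against Day0 (edgeR, adjusted p = 0.0169 and 0.0217). It was then at 0 on Day42, so a call could only be lower.

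**Figure D5:**
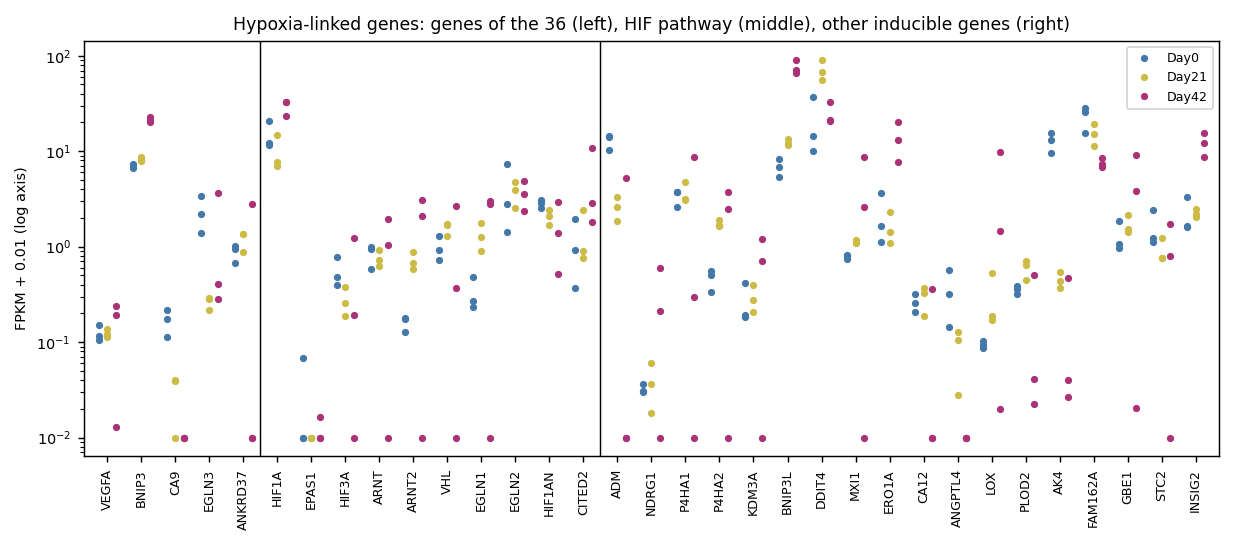
FPKM per library of the hypoxia-inducible genes among the 36, of the HIF pathway and of other hypoxia-inducible genes, on a log axis with a small constant added so that 0 can be drawn. Colours give the day. BNIP3 and BNIP3L sit higher on Day42 in all 3 libraries, AK4 sits lower on Day21 and Day42, and many genes have a Day42 library at 0.

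Genes of the HIF pathway were compared as a list of 10, of which 9 could be tested. For Day21 against Day0, edgeR called 2 higher and 0 lower, with a median log2 change of -0.10. At an unadjusted p of 0.05, 3 were higher and 2 lower. DESeq2 called 2 higher and 1 lower, and limma called 0. ARNT2, a neural partner of HIF1A, measured 0.872, 0.669 and 0.575 FPKM on Day21, against 0.163, 0.117 and 0.171 on Day0 (2.14 ± 0.31 on the log2 scale, edgeR, adjusted p = 0.00233). EGLN1, the main HIF prolyl hydroxylase, measured 1.77, 1.25 and 0.884 FPKM on Day21, against 0.225, 0.261 and 0.469 on Day0 (1.96 ± 0.36, edgeR, adjusted p = 0.00599). For Day42 against Day21, 0 of 9 were called by edgeR, 1 passed an unadjusted p of 0.05, and DESeq2 called 0 and limma 1. For Day42 against Day0, 0 of 9 were called by edgeR, 0 passed an unadjusted p of 0.05, and DESeq2 and limma called 0. Of all genes tested, edgeR called 25.6% in either direction for Day21 against Day0. It called 22.0% for Day42 against Day21 and 25.4% for Day42 against Day0. HIF1A, named here after its values were seen, measured 12.1, 11.6 and 20.6 FPKM on Day0, 14.8, 7.67 and 7.0 on Day21, with 23.3, 32.5 and 33.1 in the Day42 libraries. Its Day42 libraries were the highest in FPKM, but in scaled counts Day42 replicate 1 lay below Day0 replicate 3. The change was not called against Day21 (0.99 ± 0.32, edgeR, adjusted p = 0.0818) or against Day0 (0.38 ± 0.31).

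Other hypoxia-inducible genes, 18 in all, were also called both ways. For Day21 against Day0, 2 were called higher and 2 lower of 18 tested, for Day42 against Day21 3 and 2 of 17, and for Day42 against Day0 1 and 3 of 18. The shares of all genes called higher and lower were 13.0% and 12.6%, 5.81% and 16.2%, and 6.89% and 18.5% in that order. With so few genes tested, these counts are not read as a result about the list. BNIP3L, a paralog of BNIP3 in mitochondrial clearance, measured 5.38, 8.27 and 6.75 FPKM on Day0, 13.4, 11.6 and 12.3 on Day21, with 71.2, 65.2 and 91.0 in the Day42 libraries. It was higher on Day42 than on Day21 by 1.97 ± 0.22 and than on Day0 by 2.84 ± 0.31 (edgeR, adjusted p = 0.00699 and 0.00475). ERO1A, an oxidase of protein folding, was higher on Day42 than on Day21 by 2.41 ± 0.52 (edgeR, adjusted p = 0.0205).

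AK4, a mitochondrial adenylate kinase, measured 9.57, 13.1 and 15.5 FPKM on Day0, 0.528, 0.430 and 0.363 on Day21, with 0.0297, 0.460 and 0.0164 in the Day42 libraries. Its Day0 libraries stood far above the rest. AK4 fell by 4.91 ± 0.24 on Day21 against Day0 (edgeR, adjusted p = 7.57e-05). It fell by 6.94 ± 1.49 on Day42 against Day0 (edgeR, adjusted p = 0.0172). ANGPTL4, a secreted inhibitor of lipoprotein lipase, was at 0 in all Day42 libraries and at least 8.05-fold lower there than on Day0, or at least 5.76-fold without Day0 replicate 3. It passed the count filter for that comparison only through Day0, so its edgeR call could only be lower.

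Isozymes and transporters of glycolysis outside the 36 were mostly scarce, and those called by edgeR were called lower. Of 20 such genes in the table, 5 of 14 tested were called lower on Day21 against Day0, 3 of 11 on Day42 against Day21, and 6 of 15 on Day42 against Day0 by edgeR. The count called higher by edgeR, and the count higher at an unadjusted p of 0.05, was 0 in each, and DESeq2 called 1 higher on Day21 against Day0 and limma 1 on Day42 against Day0. Of lower genes, DESeq2 called 6 in each comparison and limma 1 in each. In these comparisons in turn, 12.6%, 16.2% and 18.5% of all genes tested were called lower by edgeR, and 13.0%, 5.81% and 6.89% higher. Among the genes called lower by edgeR on Day42, all except BSG were at 0 in every Day42 library. BSG is named after its values were seen. A gene at 0 throughout the later day passed the count filter only through the earlier day, so it could only be called lower. SLC2A4 (GLUT4), PGAM2 (muscle mutase), LDHC (testis lactate dehydrogenase) and PKLR (liver pyruvate kinase) were at 0 in all Day42 libraries, and PKLR in all Day21 libraries too. On Day0 SLC2A4 measured 2.00, 5.96 and 0.520 FPKM, and the other three were at most 4.72 FPKM. Set against a limit of 12 counts per Day42 library, the Day42 level of SLC2A4 was at least 115-fold lower than that of Day0, or at least 52.8-fold lower without Day0 replicate 2, which held the most. That of PGAM2 was at least 25.8-fold lower. By the same limit LDHC was at least 19.3-fold lower and PKLR at least 12.7-fold lower.

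Among genes for the entry of pyruvate into mitochondria and its use there, edgeR called 3 of 9 lower on Day21 against Day0 and 2 higher on Day42 against each earlier day. Over all genes tested, 12.6% were called lower on Day21 against Day0. On Day42, 5.81% were called higher against Day21 and 6.89% against Day0. On Day21 against Day0, DESeq2 called 3 lower and limma 1. On Day42, limma called 4 higher against Day21 and 3 against Day0, and DESeq2 1 and 2. PDP1, the phosphatase that reverses the action of the kinases, measured 0.692, 1.18 and 0.841 FPKM on Day0, 1.08, 0.789 and 0.672 on Day21, with 13.4, 21.3 and 24.1 in the Day42 libraries. It was higher on Day42 by 3.90 ± 0.39 against Day21 and by 3.78 ± 0.46 against Day0 (edgeR, adjusted p = 0.00504 and 0.00646). DLD, the dehydrogenase subunit shared between complexes and named after its values were seen, was the other gene called against Day21 (1.07 ± 0.21, edgeR, adjusted p = 0.0147). MPC1, a subunit of the mitochondrial pyruvate carrier, was higher on Day42 than on Day0 by 1.5 ± 0.34 (edgeR, adjusted p = 0.0199). MPC2, its partner, fell by 1.9 ± 0.38 on Day21 against Day0 (edgeR, adjusted p = 0.00891), as did DLAT by 1.25 ± 0.36 (adjusted p = 0.0356) and PDHX, named after its values were seen, by 1.03 ± 0.19 (adjusted p = 0.00648).

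In the pentose phosphate pathway, which branches off at glucose 6-phosphate, 1 of 7 genes was called lower on Day21 against Day0, 2 on Day42 against Day21 and 1 on Day42 against Day0 by edgeR. DESeq2 called as many lower in each, and limma called 0, 2 and 2 in that order. Among all genes tested, edgeR called 12.6%, 16.2% and 18.5% lower in the same order. TALDO1, the transaldolase, measured 70.1, 57.8 and 92.9 FPKM on Day0, 40.7, 34.0 and 35.2 on Day21, with 15.4, 23.1 and 13.1 in the Day42 libraries, with no overlap between days. It fell in each comparison, by 1.07 ± 0.21, 1.74 ± 0.27 and 2.76 ± 0.30 on the log2 scale for Day21 against Day0, Day42 against Day21 and Day42 against Day0 (edgeR, adjusted p = 0.00805, 0.0115 and 0.00477). PGLS, the lactonase, fell by 1.98 ± 0.45 on Day42 against Day21 (edgeR, adjusted p = 0.0246).

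Among genes of glycogen and of the other side branches, 4 of 11 tested were called lower on Day21 against Day0 and 4 of 10 on Day42 against Day0, while 1 was called higher and 2 lower of 9 on Day42 against Day21. Beside these stand 12.6% and 18.5% of all genes called lower, and 5.81% higher and 16.2% lower on Day42 against Day21. UGP2, which makes UDP-glucose, measured 31.9, 44.4 and 43.3 FPKM on Day0, 5.81, 4.33 and 5.51 on Day21, with 18.8, 19.7 and 15.2 in the Day42 libraries. The days did not overlap. UGP2 fell by 3.00 ± 0.21 on Day21 against Day0 (edgeR, adjusted p = 0.000153) and was higher on Day42 than on Day21 by 1.13 ± 0.25 (adjusted p = 0.0207). PYGL, the liver glycogen phosphorylase, fell by 2.89 ± 0.28 on Day21 against Day0 (edgeR, adjusted p = 0.000396). PYGM, the muscle form, and FBP1, of gluconeogenesis, were at 0 in all Day42 libraries, with PYGM at least 18.0-fold lower and FBP1 at least 15.4-fold lower than on Day0. Both passed the count filter only through the earlier day, so their edgeR calls on Day42, for FBP1 also against Day21, could only be lower.

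Libraries of a day differed among themselves in these genes. In scaled counts, Day0 replicate 3 was the highest Day0 library for 27 of the 36 genes. In FPKM it summed to 6679 over all of them, against 4261 and 4286 in replicates 1 and 2. Day42 replicate 3 was the highest of its day in scaled counts for 16 genes while 10 others were at 0 in it, HK2, PFKL, PFKFB2, PFKFB4, ENO3, SLC16A3, PDK2, PDK4, CA9 and ANKRD37. The sum was 4644, 3758 and 3565 FPKM on Day21 and 2022, 1697 and 2268 FPKM on Day42. The median coefficient of variation of scaled counts over the 28 genes whose mean reached 1 FPKM was 25.7% among Day0 libraries, 16.7% among Day21 and 39.1% among Day42 libraries. Of the 36 genes, 6 lie on chromosome 12 (SLC2A3, PFKM, TPI1, GAPDH, ENO2 and LDHB), and these include genes called in opposite directions on Day42 against Day21.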

How the data were processed

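The deposited table holds, for 9 libraries, raw read counts per gene and FPKM, both made by the authors before deposit. Its unit names come from the file headers. cutadapt 1.9, FastQC and the build GRCh38 are named, with no role, in the submitters' processing notes. No source used here gives the aligner, the counter, the strand setting or the gene annotation. Counts pile up at multiples of 4, so 12 counts per library, 3 such steps, was taken as the limit a count of 0 allows.

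Each comparison was fitted on the 6 libraries of its 2 days with edgeR 4.0.16 in R 4.3.3 (filterByExpr, TMM, quasi-likelihood test, Benjamini-Hochberg adjustment over all genes tested), because Day42 libraries scatter more than the others and a fit of all 9 shares 1 estimate of the spread. Standard errors are the log2 change divided by the square root of the F statistic. Isozyme shares were computed from FPKM in Python 3.11.15 with pandas 2.3.3, numpy 2.4.6 and scipy 1.17.1, and plots with matplotlib 3.10.9. Alternatives used DESeq2 1.42.0, limma 3.58.1 on log2(FPKM + 1) and log2(FPKM + 0.1), other scalings and filters, and leaving out each library. The fit was tested on simulated counts. Same-numbered libraries of different days correlated between -0.225 and 0.0266 in their deviations, so replicate numbers were not used to pair them.

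The 36 genes and all lists were chosen with earlier results of these data known. All 36 are accounted for. Values per library are given for LDHA, ENO2, every gene called in at least 1 comparison and the isozymes whose shares are described, and of each other list up to 4 called genes with the largest changes are named.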

Additional observations from a re-analysis of the deposited data

How the results depend on the processing

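Of 30 called changes among the 36 genes, 11 kept their call under all 18 alternatives of their comparison, 19 lost it under at least 1 and 0 changed sign. One of these alternatives, no minimum fold change, can only add calls. Uncalled changes close to 0 were not followed. Of 44 uncalled changes followed, 29 were called under at least 1. These include ANKRD37 on Day42 and ENO3 on Day42 against Day21, called only without Day42 replicate 2, where a call could only be lower. The cause was not tested where a count moved. For Day21 against Day0, 1 fit of all 9 libraries called 0 of the genes higher and 5 lower, and 266 higher and 238 lower over all genes. Upper quartile scaling, DESeq2, limma on log2(FPKM + 0.1), a minimum of 1 FPKM in 3 libraries, no minimum fold change and library totals each called 2 of the genes higher. Over all genes, limma on log2(FPKM + 1) called 954 higher and 993 lower, limma on log2(FPKM + 0.1) 1340 and 1238, and the FPKM minimum 1313 and 1246. For Day42 against Day21, DESeq2 called 3 and no filter 2 of the genes higher. Over all genes, limma called 1900 higher and 1534 lower with a pseudocount of 1 and 1848 and 1312 with 0.1, no filter 661 higher, library totals 1587 higher, DESeq2 4748 lower and the FPKM minimum 1187 lower. For Day42 against Day0, both limma fits, the FPKM minimum and library totals each called 4 of the genes higher. Over all genes, DESeq2 called 1841 higher and 4992 lower, limma 2070 and 1829 with a pseudocount of 1 and 2025 and 1618 with 0.1, no filter 790 higher and the FPKM minimum 1465 lower.

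With a replicate block, although the numbers do not pair the libraries, all-gene calls were 1545 higher and 1579 lower for Day21 against Day0, 131 and 168 for Day42 against Day21 and 206 and 252 for Day42 against Day0. Of the 36 genes the block called 0 higher and 2 lower for Day42 against Day21, and 1 higher for Day42 against Day0. For Day42 against Day21 the block gave -0.58 for PFKFB2 and -0.61 for PFKFB4.

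Leaving out 1 library at a time, genes of the 36 called for Day21 against Day0 numbered 1 to 4 higher and 9 to 11 lower, for Day42 against Day21 0 to 5 and 4 to 9, and for Day42 against Day0 0 to 3 and 6 to 15. Over all genes the ranges were 1737 to 3209 higher and 1920 to 2576 lower, 135 to 2306 and 173 to 4845, and 225 to 2522 and 322 to 4860. For Day42 against Day21, PFKFB2 ranged from -1.04 to 1.76, PFKFB4 from -1.02 to 1.33, EGLN3 from -0.32 to 2.37 and the ALDOA share difference from -1.54 to 2.35 points, and for Day42 against Day0 PFKL ranged from -2.36 to 0.11. Uncalled changes that turned sign were also those of ALDOA for Day42 against Day21 in both limma fits (0.12) and ANKRD37 for Day42 against Day0 with library totals (0.027). With a pseudocount of 1 FPKM added to both genes, the log2 ratio of HK1 to HK2 was -0.20 for Day21 minus Day0. The share difference was 1.84 points. HK2 was at most 0.760 FPKM in any library, under that pseudocount, so the sign of this ratio is not read as a fall of HK1 against HK2. From raw counts, the ENO2 share differed by 19.2 points for Day42 minus Day21 and by 19.4 for Day42 minus Day0, and that of LDHA by -11.5 for Day21 minus Day0 and 8.23 for Day42 minus Day21.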
